A study of Bos taurus with 2 samples.

Results

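The 10 genes described here encode heat shock chaperones, and they were taken by name: every non-control probe whose gene name on the array is HSP90AA1, HSP90AB1, HSPA8, HSPA1A, HSPD1, HSPE1, HSPB1, HSPH1, DNAJA1 or DNAJB1 was kept, whatever its signal. That gave 40 probes of 43652 on the array, or 10 genes of the 15819 that carry a gene symbol. Chaperones bind unfolded proteins and help them fold, and many are made in larger amounts when heat or other stress unfolds proteins. HSP70-type chaperones are handed their clients by J-domain partners, pass some of them to HSP90, and are reset by nucleotide exchange factors. Small heat shock proteins hold unfolded protein without using ATP, and chaperonins enclose it in a chamber. In the lactating mammary gland, whose epithelium makes very large amounts of secreted protein, several of these genes are active without any added stress. All but HSPD1 and HSPE1 encode proteins of the cytosol and nucleus. HSPD1 and HSPE1 form the chaperonin of the mitochondrial matrix, so the label "cytosolic" does not cover them.

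RNA was measured in 2 fractions of whey from raw milk of Holstein cows. One fraction, labelled exosome by the submitters, pelleted during 90 min at 10000 g and 4 °C and was washed in PBS in 2 further spins. The other was the supernatant left by the first spin, and its label reads whey supernatant after ultracentrifugation. That word and the stated 10000 g were not reconciled here, and the speed is used as given. Small vesicles are usually pelleted at higher speeds, and which particles this pellet held was not tested, so exosome below is the submitters' name for it. For each fraction the RNA of 3 milk samples was pooled, and 100 ng was labelled with Cy3 and hybridised to 1 Agilent array of 60-base probes. Age, lactation stage and health of the cows do not appear in the labels, and milk RNA can come from several cell types. With 1 array per fraction there is no replicate and no test, and every difference below is between these 2 arrays.

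The exosome array was brighter as a whole. The scanner software called 58.5% of all exosome probes well above background, against 13.1% for supernatant. Over the 3374 genes with a probe so called in both fractions, the median difference was 3.50 (log2) in favour of exosome before any scaling, or 11.3-fold. Control probes for spike-in RNA, of which 8 were detected in both, had a median difference of 2.27 (log2) in the same direction. How much of the unscaled differences below is shared with these controls was not tested. The same mass of RNA was labelled for both arrays, so the signals do not count vesicles or cells. Whether the fractions differed in the share of intact mRNA in that mass, or in labelling and hybridisation, was not tested. Such differences cannot be told apart from less of a transcript in a fraction. Values are therefore given relative to the median over those 3374 genes, called the median gene. The unscaled value stands beside them where the direction could turn. The scanner software's own error for each signal, carried into the difference, is printed as ± after a probe's difference and covers the technical error of 1 spot. Probes of 1 gene disagreed far more than that, with an SD of 1.70 (log2) over 523 genes. As a check of the source, all 10 mammary epithelial markers examined, among them the caseins and alpha-lactalbumin, were detected in exosome and 8 of them in supernatant (EPCAM and KRT18 were not), with summed signals of 1.33e+06 in exosome and 9509 in supernatant. Of 10 leukocyte markers 5 were detected on each array. CD3E, CSF3R, CXCR2, ITGAM and MS4A1 were detected on neither, and the summed signal of the list was 1116 in exosome and 1073 in supernatant. Of 6 myoepithelial markers 3 were detected on each array, with CNN1, KRT5 and TP63 on neither and summed signals of 333 in exosome and 77.1 in supernatant. The part of these cells in the chaperone values was not tested.

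The probes that carry the comparisons below are shown 5′ to 3′ as the array files give them, on the strand of the transcript, with coordinates in build HGSC Btau_3.1. Each probe shown has at least 1 reading frame free of stop codons. The first set is where the paralogues HSP90AA1 and HSP90AB1 are probed at the same place in the transcript, and the capitals in the first and second lines mark the 11 of 57 aligned bases at which these probes differ from each other. The capital in the third line marks the single base at which it differs from the HSP90AB1 probe above it over the 42 bases they share, A50G counted from 1 at its 5′ end.
HSP90AA1, chr21:67027997-67028342, minus strand: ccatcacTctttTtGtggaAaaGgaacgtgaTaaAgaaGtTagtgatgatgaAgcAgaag
HSP90AB1, chr23:18390504-18390686, plus strand: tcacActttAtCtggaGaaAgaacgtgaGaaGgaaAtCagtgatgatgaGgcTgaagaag
HSP90AB1, chr23:18390486-18390668, plus strand: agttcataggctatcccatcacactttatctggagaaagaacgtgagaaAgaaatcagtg
All 3 span more than 60 bases of the genome, so each crosses an intron and reads joined exons.

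The next lines show a probe of HSP90AA1 and one of HSPE1 that were measured on both arrays.
HSP90AA1, chr21:67026476-67026535, minus strand: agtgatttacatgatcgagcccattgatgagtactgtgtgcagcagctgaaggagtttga
HSPE1, chr2:90252340-90252478, plus strand: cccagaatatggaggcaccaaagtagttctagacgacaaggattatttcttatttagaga
The last set shows probes of 5 genes that were detected in exosome alone.
HSPA8, chr15:32348935-32348994, minus strand: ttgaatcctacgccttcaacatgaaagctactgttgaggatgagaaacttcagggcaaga
HSPA1A, chr23:27313147-27313206, minus strand: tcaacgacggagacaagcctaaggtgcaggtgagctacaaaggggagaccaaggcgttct
HSPA1A, chr23:27311987-27312046, minus strand: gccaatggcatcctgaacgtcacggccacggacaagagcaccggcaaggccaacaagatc
HSPD1, chr2:90241586-90241645, minus strand: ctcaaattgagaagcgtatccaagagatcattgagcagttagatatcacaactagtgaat
DNAJA1, chr8:78921075-78921134, plus strand: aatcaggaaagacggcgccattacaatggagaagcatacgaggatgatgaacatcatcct
DNAJB1, chr7:9504147-9504206, minus strand: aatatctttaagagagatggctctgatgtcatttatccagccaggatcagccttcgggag

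In exosome all 10 chaperone genes had detectable transcripts, and in supernatant 4 had: HSP90AA1, HSP90AB1, HSPE1 and HSPB1. A gene counts as detected where any of its probes is well above background by the scanner software's call. Over all named genes 69.2% were detected in exosome and 22.8% in supernatant, and of the genes detected in exosome 31.4% were also detected in supernatant. Counting single probes, 40 of 40 passed in exosome and 8 of 40 in supernatant. Having every probe detected in exosome was true of 48.1% of named genes. The exosome signals of the 40 probes ran between 34.6 and 26740. The 8 probes detected in supernatant had signals there of 10.5 to 63.4, and the other 32 had 1.82 to 11.1, with a median of 2.09. Of these 32, 23 lay at or below 4.32, the 99th percentile of the supernatant array's negative controls, and 12 passed the software's weaker call of a positive and significant signal. The call is made per spot, so values just inside and just outside it overlap: the lowest detected signal was 10.5 (HSP90AA1), and signals of 11.1 (HSPB1), 10.5 (HSPD1) and 10.1 (HSPA8) did not pass.

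**Figure D1:**
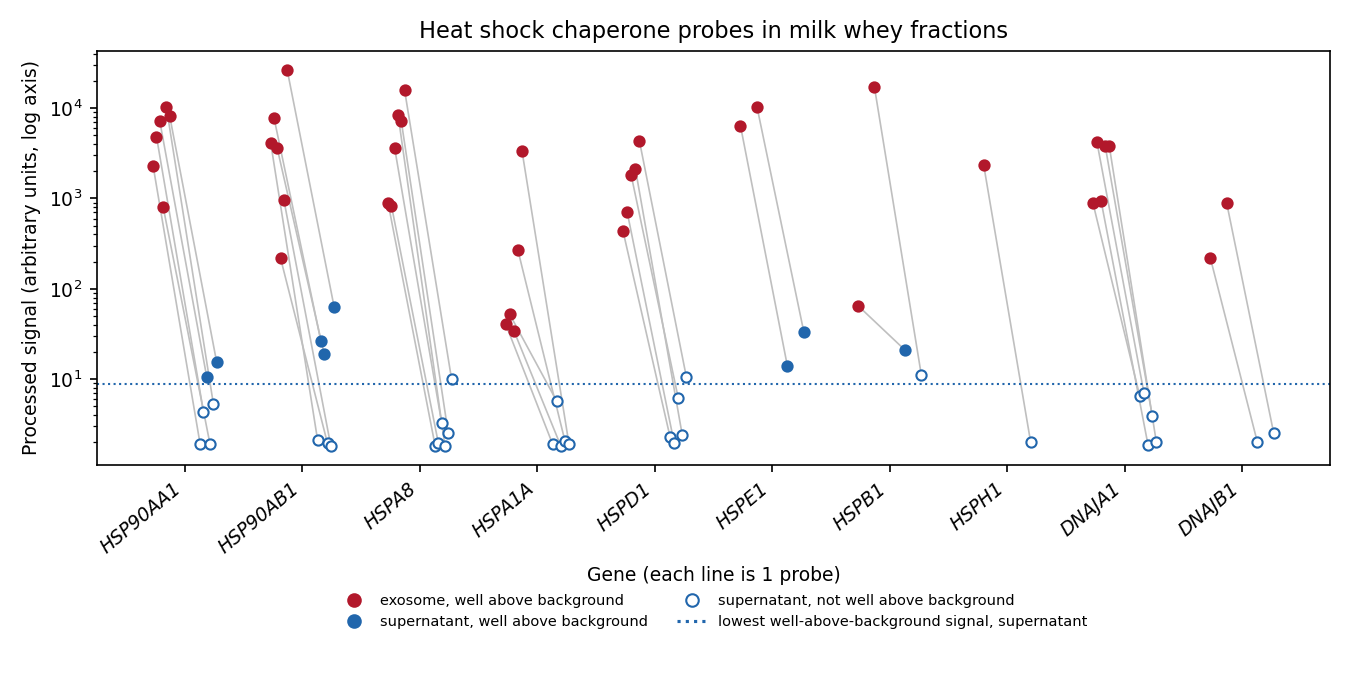
Processed signal (log axis) of each of the 40 probes, exosome left and supernatant right within each gene. Each line joins 1 probe, and probes are ordered by the transcript position given with the array. Filled points are well above background, and the dotted line is the dimmest such signal in supernatant (8.75). All 40 exosome points are filled, and 8 supernatant points are, in HSP90AA1, HSP90AB1, HSPE1 and HSPB1.

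Detection in supernatant went with brightness in exosome across the array, so the chaperone probes are set against probes of like exosome signal. Of 825 named probes with an exosome signal of 10000 or more, 68.7% were detected in supernatant, against 29.9% of 3757 between 1000 and 10000 and 17.0% of 8245 between 100 and 1000. Of the chaperone probes, 2 of 5 were detected in the brightest class, 5 of 19 in the next and 0 of 12 in the third. In the dimmest class, below 100, it was 1 of 4, against 12.6% of 7968. These counts are small, and 40 probes of 10 genes are not independent.

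**Figure D2:**
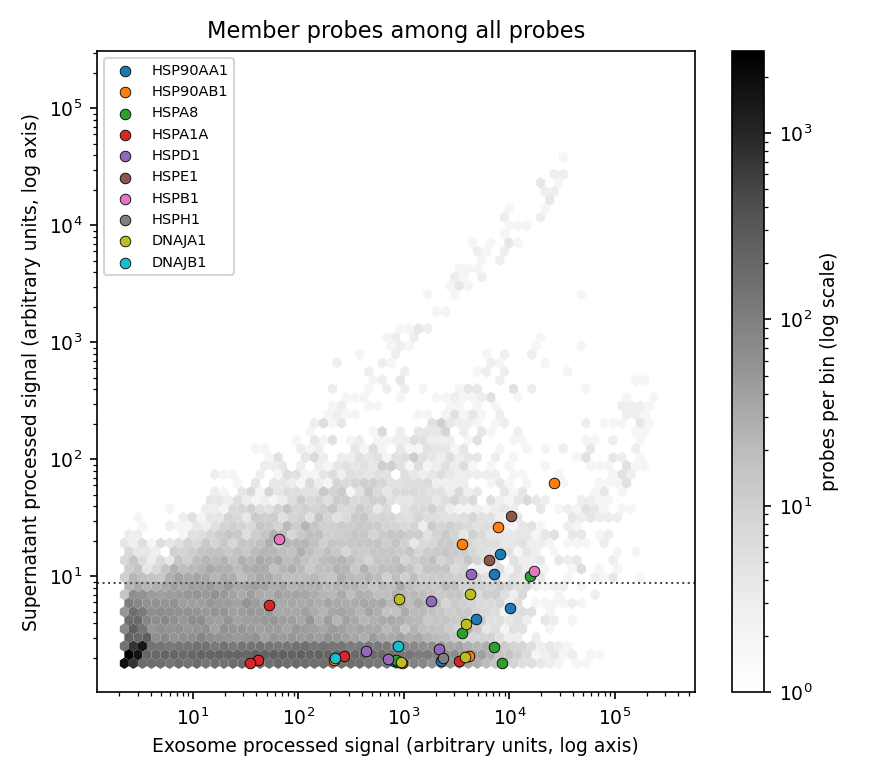
Supernatant against exosome signal (both log axes) for all 43652 probes, as grey bins shaded by their number, with the 40 chaperone probes coloured by gene. The dotted line marks the dimmest supernatant signal that passed the call. Most chaperone probes lie under that line, and the HSPB1 probe with an exosome signal of 65.2 lies apart from the other 7 that were detected in supernatant.

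The HSP90 genes were detected in both fractions and were far brighter in exosome. HSP90AA1 encodes the stress-inducible and HSP90AB1 the constitutive cytosolic HSP90, ATP-driven chaperones of kinases and steroid receptors. The 6 HSP90AA1 probes, in order along the transcript, had exosome signals of 2261, 4837, 7157, 814, 10250 and 8221, against supernatant signals of 1.89, 4.35, 10.5, 1.90, 5.35 and 15.5. Only the third and the last were well above background in supernatant. Those 2 probes stood 5.91 ± 0.32 and 5.55 ± 0.33 above the median gene (log2), and their mean difference was 5.73, which is 9.23 or 600-fold before scaling. The other 4 have bounds of at least 258-fold, 553-fold, 93.0-fold and 1171-fold in the same order before scaling. For these 4 the bound sets the exosome signal over 8.75, the dimmest supernatant signal that passed the call, or over the probe's own signal where that is higher.

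The 6 HSP90AB1 probes had exosome signals of 4146, 7853, 3584, 219, 968 and 26740, against supernatant signals of 2.10, 26.3, 18.8, 1.94, 1.83 and 63.4. The second, the third and the last were detected in supernatant. They stood 4.72 ± 0.23, 4.07 ± 0.25 and 5.22 ± 0.21 above the median gene, and their mean was 4.67, or 288-fold before scaling. The second and the third are the overlapping probes shown above, which share 42 bases, so they are not independent readings. At the place shown, the HSP90AA1 probe had 4.35 in supernatant and was not detected, and the HSP90AB1 probe had 18.8 and was. The first probe of each gene forms another such pair, matching at 25 of 28 bases, and there neither was detected in supernatant, at 1.89 for HSP90AA1 and 2.10 for HSP90AB1. The pair shown match at 46 of 57 bases, so cross-hybridisation between the paralogues cannot be told apart from their own signal there. The fourth HSP90AB1 probe and its neighbour towards the 3′ end overlap by 30 bases and differ at 1 of them, T33G in the fourth, and their bounds were at least 24.98-fold and 111-fold. The last probe of each HSP90 gene had no match to another probe on the array at the thresholds searched, 25 bases and 75% identity.

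HSPE1, the lid of the mitochondrial chaperonin, was the gene with every probe detected on both arrays. Its 2 probes had exosome signals of 6374 and 10412, against 13.9 and 33.0 in supernatant. They stood 5.34 ± 0.28 and 4.80 ± 0.22 above the median gene, with a mean of 5.07, or 381-fold before scaling. The probes differed by 0.54, less than the 1.70 SD between probes of a gene. HSPD1, the barrel to which HSPE1 binds, was detected in exosome alone. Its 5 probes had exosome signals of 435, 710, 1797, 2136 and 4309, against supernatant signals of 2.31, 1.98, 6.19, 2.38 and 10.5. Averaged over the 5 probes the bound was 153-fold before scaling and 13.5-fold relative to the median gene. The last probe enters this average as a plain ratio, over its supernatant signal of 10.5. Whether HSPD1 and HSPE1 differ cannot be said, as a bound of 3.76 (log2) for HSPD1 leaves room for the 5.07 of HSPE1. Both genes lie on chromosome 2 in the array's build.

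HSPB1, a small heat shock protein, gave readings on opposite sides of the median gene from its 2 probes. The probe made from the RefSeq transcript (chr25:36499455-36499514) had a signal of 17242 in exosome and 11.1 in supernatant, where it was not called well above background. Its value of 1557-fold in favour of exosome is the plain ratio of these signals, not a lower bound. The other probe was made from an expressed sequence tag that the files leave unmapped, and whether it reads HSPB1 on the transcribed strand could not be settled. The gene's detection in supernatant rests on this probe alone. It had 65.2 in exosome and 21.0 in supernatant, detected on both, and stood 1.87 ± 0.25 below the median gene. Because only the second was detected on both arrays, the gene's value by the rule for all genes was -1.87, the lowest of the 4 measured on both arrays. Before scaling that probe was still 3.1-fold brighter in exosome, and after scaling to the 75th percentile its difference was -3.93, so its direction depended on the scaling. The ratio of the RefSeq probe was 32.9-fold in favour of exosome after the same scaling.

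HSPA8, the constitutive HSP70 that also strips clathrin from vesicles, was not detected in supernatant by any of its 6 probes. Their exosome signals were 887, 836, 3583, 8503, 7181 and 15857, against 1.84, 1.95, 3.28, 1.82, 2.51 and 10.1 in supernatant. The last probe gave the largest value, 1572-fold before scaling, which is a plain ratio over its supernatant signal of 10.1. Averaged over the probes, with that plain ratio among them, the bound was 413-fold, or 36.5-fold relative to the median gene. The HSPA8 probe with 7181 in exosome matches an unnamed probe on the array at 34 of 38 bases, and that probe had 8573 in exosome and 2.01 in supernatant.

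HSPA1A, the stress-inducible HSP70, was detected in exosome by all 5 probes with widely different signals. They were 41.0, 52.3, 34.6, 268 and 3354 in exosome, and 1.92, 5.73, 1.83, 2.08 and 1.91 in supernatant, none of them well above background there. The fourth probe is listed on a different RefSeq transcript from the others, so its position is not on their scale. Bounds ran between 3.95-fold and 383-fold before scaling, and their average was at least 16.7-fold, or 1.48-fold relative to the median gene. After scaling to the 75th percentile the averaged bound fell under 1, so no fold is given on that scale. The first 3 probes had bounds below the median gene, which leaves the direction against it unknown for them. Cattle carry near-identical HSPA1A copies, and the current RefSeq table lists HSPA1B as another name of HSPA1A, so the signals of such copies cannot be separated. The last probe is unmapped in the array's build.

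**Figure D3:**
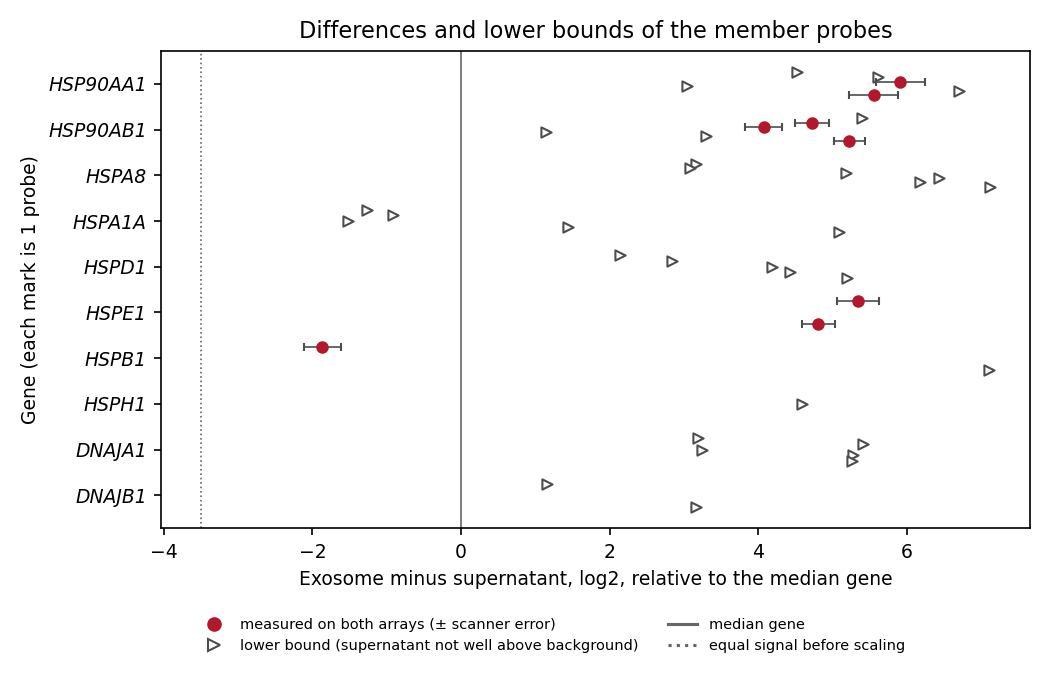
Exosome minus supernatant difference of each probe relative to the median gene (log2), with probes of a gene ordered downwards by the transcript position given with the array. Red points are probes measured on both arrays, with the scanner error as a bar, and open arrows are lower bounds for the 32 probes not well above background in supernatant. For the last HSPA8 and HSPD1 probes and the RefSeq HSPB1 probe the arrow is the plain ratio. The solid line is the median gene, and the dotted line, at -3.50, marks equal signal before scaling. All 40 marks lie right of the dotted line, and 7 of the 8 measured probes lie right of the solid one.

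HSPH1, DNAJA1 and DNAJB1, which work with HSP70, were detected in exosome alone. HSPH1, an HSP110 that releases ADP from HSP70, has 1 probe, with 2371 in exosome and 2.03 in supernatant, at least 271-fold before scaling. DNAJA1, a J-domain protein that brings clients to HSP70, has 5 probes, with exosome signals of 901, 4201, 940, 3840 and 3794 and supernatant signals of 6.45, 7.06, 1.87, 3.96 and 2.04. Its averaged bound was at least 252-fold before scaling and 22.2-fold relative to the median gene. The last 2 of these probes share 28 bases that differ at 1, C39T in the fourth, and had almost equal bounds of at least 439-fold and 433-fold. DNAJB1, the heat-inducible J-domain protein, has 2 probes, with 220 and 883 in exosome and 2.03 and 2.52 in supernatant. Its averaged bound was at least 50.4-fold before scaling and 4.45-fold relative to the median gene.

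Set in order, the 3 genes measured on both arrays above the median gene stood at 5.73 (HSP90AA1), 5.07 (HSPE1) and 4.67 (HSP90AB1). These neighbours differ by 0.65 and 0.40, less than the 1.70 SD between probes of a gene. HSPB1 stood at -1.87. The median of the 4 was 4.87, with 3 of 4 at least 2-fold above the median gene, against 37.3% of all genes measured on both. Before scaling all 4 were at least 2-fold brighter in exosome, against 83.3% of those genes. The difference also followed exosome brightness: among named probes detected in both fractions its median was 2.63 for exosome signals between 1000 and 10000 and 5.76 at 10000 or more. In the first of these classes the 5 chaperone probes, of HSP90AA1, HSP90AB1 and HSPE1, stood between 4.07 and 5.91, all above the class median. Their exosome signals ran between 3584 and 8221, and brightness within the class was not matched. In the brightest class the HSP90AB1 probe at 5.22 and the HSPE1 probe at 4.80 were both below it. All 3 of these genes stayed at least 2-fold brighter in exosome with 75th percentile scaling, at 3.66, 3.01 and 2.61, where 18.1% of all measured genes did. Among the 6 genes detected in exosome alone, the bound was at least 2-fold above the median gene for 5 (all but HSPA1A), against 39.3% of the 7505 genes of that kind. A bound follows the exosome signal, so this count repeats how bright the probes were there. The same holds per probe, where 29 of 32 bounds lay 2-fold or more above the median gene. The share over all probes detected in exosome alone was not computed.

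The GC content of the 8 probes detected in supernatant was 35% to 45%, with a median of 40%. The 32 undetected probes had a median of 45%, and all 40 lay between 35% and 60%. The longest run of G in any of the 40 probes was 4. Of the 8, 3 cross an intron, as do 9 of the 40.

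Other genes of the chaperone network were also detected mainly in exosome. Of 94 further genes on the array, in 7 lists, 86 (91.5%) were detected in exosome and 17 (18.1%) in supernatant, none in supernatant alone. Over all named genes 69.2% were detected in exosome and 22.8% in supernatant, and the counts per list below stand against the same shares. Over all genes detected in exosome, the share also detected in supernatant was 31.4%. Each of the 17 had a probe that passed in both fractions. Their median was 0.73 above the median gene, with 7 of them 2-fold or more above it and 4 of them 2-fold or more below. That median is the value of PFDN5, whose 2 probes disagreed, one at 5.22 and the other at -3.76. The share 2-fold or more above was 37.3% over all genes measured on both. The matching share 2-fold or more below is not given here, so the 4 cannot be set against it. Of the 4 below (HYOU1, TTC4, HSF2 and HSF4), all but HSF4, which has a single probe, have another probe whose bound lies above the median gene. Differences for genes outside the 10 are again relative to the median gene.

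Among HSP70 and HSP90 partners, all 21 co-chaperone genes were detected in exosome and 5 in supernatant. BAG1, a nucleotide exchange factor of HSP70, stood at 6.22 by 1 of 2 probes (11836 in exosome, 14.0 in supernatant) and STIP1, which joins HSP70 to HSP90, at 4.49 from 2 of its 6 probes. FKBP5, an HSP90-bound immunophilin, stood at -0.42 by 1 of 4 probes, but 2 of its other probes, with 2493 and 2455 in exosome and 1.88 and 3.03 in supernatant, have bounds 4.65 and 4.63 above the median gene. TTC4 stood at -1.41 by 1 of 3 probes, and another had a bound 0.56 above. The direction of both genes against the median gene therefore depends on the probe. PTGES3, the HSP90 co-chaperone p23, and FKBP4, another immunophilin, had the largest bounds, at least 194-fold and 165-fold before scaling.

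Of 33 other J-domain genes, 31 were detected in exosome and 6 in supernatant. DNAJC21 stood at 3.64 by 1 of 4 probes and DNAJA2, a close relative of DNAJA1, at 2.23. DNAJC11 stood at -0.13 by 1 of 3 probes, but another of its probes, with 2848 in exosome and 4.46 in supernatant, has a bound 4.85 above the median gene. DNAJC7 stood at -0.86 by 2 of 4 probes, and the other 2 have bounds 1.06 and 2.22 above. The 2 measured DNAJA2 probes disagreed, with unscaled differences of 7.66 and 3.79. DNAJC12 had the largest bound of any gene in these lists, at least 1851-fold before scaling, with signals of 51079 and 5142 in exosome against 1.84 and 1.93 in supernatant. Among the J-domain genes DNAJB2 came next, at least 184-fold.

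Of 14 other HSP70, HSP110 and HSP90 genes, 11 were detected in exosome and 1 in supernatant. That gene, HYOU1, an HSP110 of the endoplasmic reticulum, stood at -1.12 by 1 of 3 probes, and another, with 323 in exosome and 2.37 in supernatant, has a bound 1.70 above the median gene. HSP90B1, the HSP90 of the endoplasmic reticulum, and HSPA9, the mitochondrial HSP70, had bounds of 105.3-fold and at least 89.9-fold before scaling. The HSP90B1 value is a plain ratio, over a supernatant signal of 8.93.

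The TRiC chaperonin, which folds actin and tubulin in the cytosol, had 8 of 8 subunit genes detected in exosome and 0 of 8 in supernatant. CCT3 and CCT2 had the largest bounds, at least 531-fold and 330-fold before scaling. Prefoldin, which delivers clients to TRiC, had 6 of 6 subunit genes detected in exosome and PFDN5 alone in supernatant. The 2 PFDN5 probes disagreed: one had 24983 in exosome and 59.1 in supernatant, and the other 33553 in exosome and 40135 in supernatant. PFDN1 and PFDN6 had bounds of at least 549-fold and 234-fold.

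Of 8 other small heat shock protein genes, 5 were detected in exosome, and HSPB6 alone in supernatant, at 1.09 above the median gene. CRYAB, alpha-B-crystallin, was at least 233-fold brighter in exosome before scaling and HSPB2 at least 69.6-fold. Of the 4 genes for heat shock transcription factors and their regulator, all were detected in exosome and 3 in supernatant. HSF1, which switches on heat shock genes, stood at 1.30 by 1 of 3 probes and HSF4 at -1.82 by its single probe. HSF2 stood at -2.93 by 1 of 2 probes (16.5 in exosome, 11.1 in supernatant), and the other, with 168 in exosome and 2.07 in supernatant, has a bound 0.77 above the median gene. HSBP1, which binds HSF1, was detected in exosome alone, at least 357-fold brighter before scaling.

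**Figure D4:**
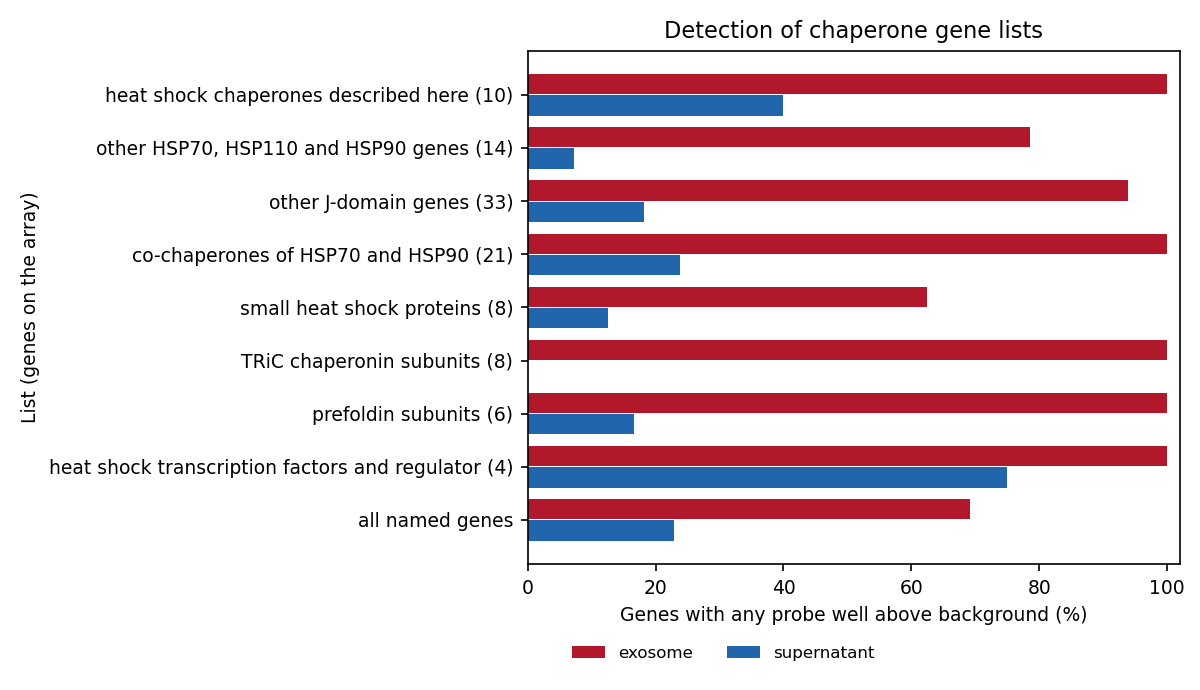
Share of genes with any probe well above background (percent) in exosome (upper bar) and supernatant (lower bar) for the 10 heat shock chaperones and the 7 other lists, with the number of genes on the array in brackets and all named genes at the bottom. The 10 chaperones are at 100% in exosome and 40% in supernatant, and all named genes at 69.2% and 22.8%.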

How the data were processed

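The deposited intensity values are processed signals of Agilent Feature Extraction 10.7.3.1, per the submitters' processing notes and the file headers. That software subtracted the background and removed spatial trends on each array by itself, with no step between arrays, per the file headers. The deposited flags (other columns of 0 or 1) and the signal errors come from the same software, per the file headers. A table of log2 values, also deposited, was compared for 43603 probes and departed from the logged signals by less than 0.001, so it is neither scaled nor centred.

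Control spots and outlier spots (5 exosome, 2 supernatant) were left out, and none was saturated. Spots of a probe were averaged on the log2 scale, and each array's 75th percentile (248 and 5.24) was subtracted. A gene's difference, exosome minus supernatant, averages the probes that passed in both fractions, minus the median over the 3374 genes so measured. Bounds divide the exosome signal by the higher of the supernatant signal and 8.75. Where the supernatant signal is the higher, the bound is the plain ratio and takes no account of its error. A gene's bound averages its probes detected in exosome. The number of arrays limits the precision. Without replicates the spread is technical: 9 probes on 4 spots, detected on both arrays, gave an SD of 0.18 for the difference.

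Gene names are the array's. The accession of 26739 probes was in the RefSeq table of ARS-UCD2.0, used for names only, which renamed 2347 and added no probe to the 10 genes. Chaperone names of the lists were kept as on the array. Overlaps between probes were sought without gaps, over at least 25 bases at 75% identity. Probes are ordered by the transcript position given with the array. For a probe each of HSPA8, HSPA1A and HSPD1 (listed at 542, 876 and 973) the genome coordinates lie nearer the 3′ end. Those coordinates cover only 20, 30 and 39 bases of these probes. Whether a probe lies in coding sequence or a UTR was not analysed here. From each other list the text names the 2 genes highest and 2 lowest on both arrays and the 2 with the largest bounds. The 10 genes and the lists were chosen with earlier results of these data known. No genes of like pattern are named, since 2 arrays give no pattern. Gene averages and their centring were tested on simulated data in which every probe counted as detected. The detection call and the bounds were not part of that test. Calculations were run with Python 3.11.15, numpy 2.4.6 and pandas 2.3.3, with limma 3.58.1 for the normexp alternative.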

Additional observations from a re-analysis of the deposited data

How the results depend on the processing

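The 4 measured chaperones rest on 8 probes near the limit of detection in supernatant, and that limit, not the exosome signal, sets most of what can be said. Of 10 chaperone genes, 4 were detected in supernatant, 9 with the weaker call, 10 with no filter on dim probes, 1 with a stricter filter at 4 times the lowest detected signal, and 1 when every probe was required. With no filter every gene counts as detected, so the 10 here and the 94 below are fixed by that setting. The number at least 2-fold above the median gene was 3, and 8, 10 and 1 with the weaker call, no filter and the stricter filter. The share of all genes so called under these 3 alternatives is not given here, so these counts cannot be set against it. Their median difference of 4.87 was 5.05 with the weaker call (9 genes), 5.66 with no filter (10 genes), 5.34 with the stricter filter (1 gene), 4.42 with quantile normalization and 4.50 with normexp background correction and an offset of 50. Without centring on the median gene it was 8.37 with no scaling, 6.10 with spike-in scaling, 2.81 with 75th percentile scaling and 2.92 with that percentile over probes detected on both. HSPB1, at -1.87, turned to 1.63 with no scaling, 2.72 with the weaker call and 3.21 with no filter, where in the last 2 its RefSeq probe entered. Of the other 94 chaperone genes, 17 were detected in supernatant, and 67, 94 and 7 with the weaker call, no filter and the stricter filter. Their median of 0.73 was 1.96 with the weaker call, 3.097 with no filter, 0.21 with the stricter filter, 0.38 with normexp and 0.043 with the brightest probe per gene. Uncentred it was 4.23 with no scaling, 1.96 with spike-in scaling, -1.33 with 75th percentile scaling and -1.22 with that percentile over probes detected on both. Where the construction does not show it, the cause was not tested. The other alternatives run (array median scaling, outlier spots kept, the deposited table, probes added by accession) moved these counts by less than 1.5 times and these medians by less than the spot SD. No paired analysis was possible because each fraction has 1 array.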
